A study of Homo sapiens with 6 samples.

Results

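The NF-κB subunits NFKB1, NFKB2, RELA and RELB, the inhibitors NFKBIA, NFKBIE and TNFAIP3 and the target genes BIRC3, ICAM1 and CXCL8 were examined after knockdown of NONO in wild-type HCT116, an established line from a human colorectal carcinoma. NONO is an RNA- and DNA-binding protein of nuclear paraspeckles. The 10 genes were chosen by name and found by their Ensembl identifiers among the 62492 genes listed in the files. Cells received siRNA at 20 nM, with lipofectamine RNAiMAX as the carrier, either a control duplex (siControl) or a duplex against NONO (siNONO). Each group held 3 libraries of polyadenylated RNA, 1 from each of Sets 1 to 3, so that each siNONO library had a siControl library of the same Set. All libraries came from a single cell line and a single NONO duplex, with no rescue, and the transfection reagent was common to both groups.

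The libraries held between 21765393 and 32659002 counts. NONO itself (X:70474664-70521372 in GRCh37, plus strand) stood at 496, 495 and 516 CPM (counts scaled to library size) in siControl and at 89.5, 95.5 and 100 CPM in siNONO, a log2 fold change of -2.40 ± 0.0337 (SE; adjusted p = 2.47e-13). The knockdown was present in all 3 siNONO libraries. Of 17000 genes tested, 7924 (46.6%) passed an adjusted p of 0.05, 23.2% of the tested genes being higher and 23.4% lower in siNONO, so a call by itself was common in this comparison. The epithelial genes KRT8, KRT18, KRT19, EPCAM, CDH1 and CDX2 were present in every library, whereas VIL1 had at most 7.14 counts. Of the 3 leukocyte markers CD68, a lysosomal protein of macrophages that other cells also make, was the only gene tested and rose (log2 fold change 1.40), with the summed markers at 2.23 to 5.86 TPM in siControl and 6.30 to 6.45 TPM in siNONO. PTPRC, the defining marker of leukocytes, had 1 count in a single siControl library and 0 in the other five. The fibroblast pair COL1A1 and DCN summed to 16.4 to 19.0 TPM in siControl and 16.2 to 18.3 TPM in siNONO, and the endothelial marker CDH5 had at most 1 count in a library. The part of CD68-expressing cells in the results that follow was not tested.

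NF-κB is a family of dimeric transcription factors that share a Rel homology domain. In resting cells the dimers are held in the cytoplasm by IκB proteins, or by the unprocessed NFKB1 and NFKB2 precursors, and signals from cytokine and Toll-like receptors free them through the IκB kinases. The canonical arm acts mainly through RELA with the processed NFKB1 product, and the non-canonical arm through RELB with the processed NFKB2 product. Several of the genes that NF-κB activates encode its own inhibitors or subunits, so their mRNAs are in common use as readouts of the pathway, and in intestinal epithelium the pathway serves survival and responses to microbes.

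Sequences that Rel dimers could recognise were looked for in the promoters of these genes. RefSeq promoter windows (GRCh38.p14, from 250 bases before to 50 after each annotated start) were matched for 8 of the 10 genes, all but RELB and NFKBIE. The κB consensus, searched by name on both strands, was found in a window of 5 of these 8 genes, which have 12 windows among them, and of 7.09% of all 27305 genes. By window the share was 5.91% of all 35116. The segments are shown on the strand of the gene, with the match in capitals, because they are the letters through which Rel dimers are known to recognise their targets.
NFKB1, chr4:102501300-102501329: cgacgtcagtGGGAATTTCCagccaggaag
NFKB2, chr10:102394490-102394519: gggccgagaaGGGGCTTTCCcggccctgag
NFKB2, chr10:102395674-102395703: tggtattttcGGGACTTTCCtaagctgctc
NFKBIA, chr14:35404811-35404840: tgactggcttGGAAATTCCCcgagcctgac
TNFAIP3, chr6:137867188-137867217: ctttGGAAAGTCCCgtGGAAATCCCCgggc
BIRC3, chr11:102317275-102317304: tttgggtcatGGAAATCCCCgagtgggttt
The match lay 49 bases before the start in NFKB1, 81 in NFKBIA, 67 in TNFAIP3 (the more distant of its 2 matches) and 199 in BIRC3, and BIRC3 had another match 135 bases before its start. NFKB2 had 3 annotated starts, of which 2 had matches and 1 had none. A match before each of those 2 starts is shown, 78 and 21 bases away.

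ICAM1 and CXCL8 held no match to the consensus within the window. A shorter motif, GGAATTTCC or GGAAATTCC on the other strand, was then chosen after it was seen that they lacked the consensus. It overlaps the consensus in NFKB1 and NFKBIA, and it occurred in 0.461% of windows and 0.56% of genes.
ICAM1, chr19:10270924-10270952: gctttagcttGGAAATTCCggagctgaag
CXCL8, chr4:73740468-73740496: tgcaaatcgtGGAATTTCCtctgacataa
The ICAM1 match lay 186 bases and the CXCL8 match 91 bases before the start. With both motifs, 7 of the 8 genes held a match, the exception being RELA, whose 2 windows held none of these letters. That count depends on the later choice of the shorter motif. The share of all genes with either motif was not taken. These matches describe the sequence and do not show that a factor was bound there in these cells.

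Per transcript length, NFKB2 and RELA were the most abundant of these mRNAs. In siControl, NFKB2 stood at 57.1 ± 6.64 TPM (SD, n = 3), the TPM being a level scaled for transcript length and library size, and RELA at 55.5 ± 4.02 TPM, with overlapping libraries. NFKBIA followed at 36.0 ± 1.16 TPM and NFKB1 at 20.8 ± 1.88 TPM, each apart from its neighbours in every library. NFKBIE stood at 9.74 ± 0.731 TPM, followed by RELB at 7.0 ± 1.09 TPM and BIRC3 at 5.56 ± 0.438 TPM, the last pair overlapping. CXCL8 (4.41 ± 0.350 TPM), ICAM1 (3.60 ± 0.465 TPM) and TNFAIP3 (2.96 ± 0.584 TPM) were the lowest and each overlapped the next. The order of the 10 means was the same in siNONO, where ICAM1 and TNFAIP3 no longer overlapped and NFKBIE and RELB did. NFKB2 and RELA mRNA thus stood well above the 3 target mRNAs in every library, whereas RELB did not stand apart from BIRC3.

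**Figure D1:**
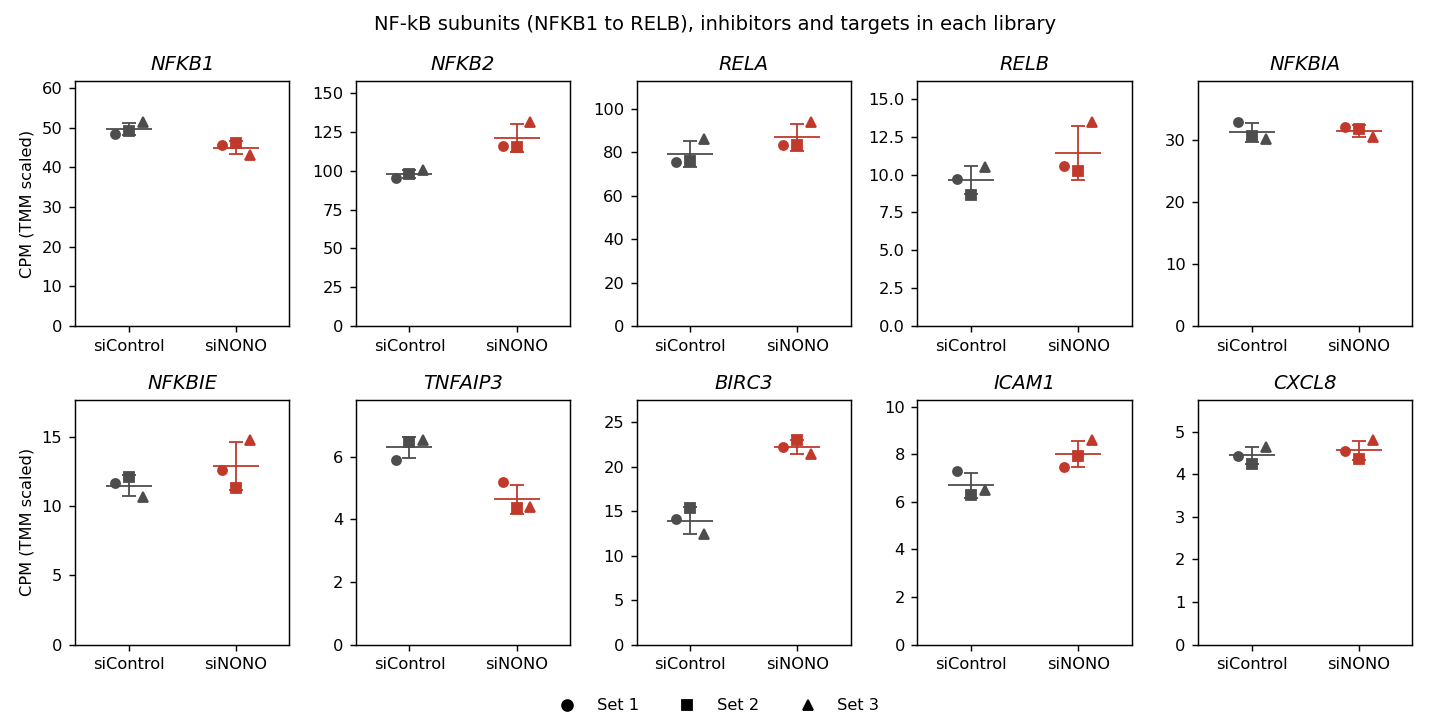
Level in CPM (vertical axis, linear scale) of the 10 genes, each in its own panel, in the 3 siControl and 3 siNONO libraries. Marker shape gives the Set, and bars give the mean and SD of each group. NFKB2 and BIRC3 were higher in every siNONO library than in any siControl library, with BIRC3 moving from 14.0 to 22.2 CPM on average, whereas NFKBIA and CXCL8 overlapped.

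Among the subunits, NFKB2, which encodes the precursor that is processed for the non-canonical arm (10:104153867-104162281 in GRCh37, plus strand), changed most by counts. Its level was 95.5, 97.6 and 100.4 CPM in siControl Sets 1 to 3 and 116, 115 and 131 CPM in the siNONO libraries. Every siNONO library lay above every siControl library, with Set 3 highest in both groups. The fitted level was 23.4% higher after NONO knockdown. This was a log2 fold change of 0.30 ± 0.0371 (SE, 95% interval 0.22 to 0.38), with an adjusted p of 2.5e-05. The fold was positive in 3 of 3 Sets, at 0.28, 0.24 and 0.39. On the log2(TPM + 1) scale, tested with limma, the NFKB2 fold was 0.10 (adjusted p = 0.133) and no longer the largest of the subunits, with NFKB1 at -0.25 and RELB at 0.18. In these bulk samples, more expressing cells and more RNA per cell cannot be told apart.

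NFKB1, which encodes the precursor of the canonical partner of RELA (4:103422487-103538459, plus strand), went the other way. It stood at 48.5, 49.3 and 51.5 CPM in siControl and at 45.6, 46.2 and 43.1 CPM in siNONO. The siNONO libraries lay below all siControl libraries, by a small margin. The fitted level fell by 9.45%, with a log2 fold change of -0.14 ± 0.0480 (SE, 95% interval -0.25 to -0.04) and an adjusted p of 0.0270. The adjusted p was 0.0766 without the Set as a block, and it also missed the threshold without siControl Set 2 (0.0640), siControl Set 3 (0.155) or siNONO Set 3 (0.139).

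RELA, the activating subunit of the canonical dimer (11:65421070-65430561, minus strand), was measured at 75.7, 76.0 and 86.1 CPM in siControl and at 83.4, 83.1 and 94.0 CPM in siNONO. The groups overlapped, with Set 3 high in both, while within each Set the siNONO library was higher by a nearly equal amount. The log2 fold change was 0.13 ± 0.0349 (SE, 95% interval 0.06 to 0.21; adjusted p = 0.00781), or 9.55%, and it was 0.14, 0.13 and 0.13 in Sets 1 to 3. The call rests on the pairing by Set, since without that block the adjusted p was 0.158. It missed the threshold narrowly without siControl Set 1 (0.0505) or siNONO Set 1 (0.0605).

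RELB, the activating subunit of the non-canonical dimer (19:45504719-45541450, plus strand), was far less abundant. It stood at 9.71, 8.65 and 10.5 CPM in siControl and at 10.6, 10.2 and 13.5 CPM in siNONO. The siNONO library was the higher in each Set, and the groups overlapped. The log2 fold change was 0.24 ± 0.0820 (SE, 95% interval 0.06 to 0.42; adjusted p = 0.0314), with 0.12, 0.24 and 0.36 in Sets 1 to 3. Without the block the adjusted p was 0.125, and without siControl Set 2 or 3 or siNONO Set 2 or 3 it ranged from 0.0788 to 0.152. The fifth member of the Rel family, REL, showed a log2 fold change of 0.06 (95% interval -0.09 to 0.21; adjusted p = 0.518), and it passed without siControl Set 3 (0.18, adjusted p = 0.0183) or siNONO Set 3 (0.17, adjusted p = 0.0167).

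NFKB2 and NFKB1 changed in opposite directions by counts, and their shares of the Rel family mRNAs were looked at by TPM. On the log2(TPM + 1) scale, tested with limma, neither NFKB2 (adjusted p = 0.133) nor NFKB1 (adjusted p = 0.0560) passed. As a share of the summed TPM of the 5 Rel family genes, NFKB1 held 15.4%, 14.1% and 13.8% in siControl and 12.0%, 13.0% and 10.8% in siNONO. NFKB2 held 37.4%, 39.9% and 41.0% in siControl and 41.1%, 42.0% and 43.1% in siNONO. The NFKB1 share was lower and the NFKB2 share higher in all 3 siNONO libraries than in any siControl library, while the shares of RELA, RELB and REL overlapped. For NFKB2 the nearest libraries were almost level, at 41.0% in siControl Set 3 and 41.1% in siNONO Set 1. The family total hardly moved, at 143, 133 and 158 TPM in siControl and 146, 135 and 154 TPM in siNONO.

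Within each library, NFKB2 had 1.97, 1.98 and 1.95 counts for each NFKB1 count in siControl and 2.54, 2.5 and 3.05 in siNONO. On the TPM scale the same ratio was 2.43, 2.83 and 2.97 in siControl and 3.42, 3.22 and 4.01 in siNONO. The groups were apart on both scales, by 0.45 (log2, counts; SD over Sets 0.170) and 0.37 (log2, TPM). The ratio needs no scaling between libraries, but it was chosen after the values were seen. An exact permutation test of 3 against 3 libraries that ignores the Sets cannot go below 0.10, and one within the Sets has a higher floor. The RELB to RELA count ratio, by comparison, was 0.128, 0.114 and 0.122 in siControl and 0.127, 0.123 and 0.144 in siNONO, and the groups overlapped. By TPM that ratio was 0.129, 0.113 and 0.134 in siControl and 0.142, 0.137 and 0.161 in siNONO, with the groups apart by 0.23 (log2).

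The inhibitors did not move together. NFKBIA, which encodes IκBα, the inhibitor that NF-κB itself induces most rapidly (14:35870285-35873955, minus strand), stood at 33.0, 30.6 and 30.2 CPM in siControl and at 32.2, 31.8 and 30.5 CPM in siNONO. The groups overlapped throughout. The log2 fold change was 0.01 ± 0.0502 (SE), with a 95% interval of -0.10 to 0.12 (adjusted p = 0.890).

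NFKBIE, which encodes IκBε (6:44225903-44233525, minus strand), was measured at 11.7, 12.1 and 10.7 CPM in siControl and at 12.7, 11.3 and 14.8 CPM in siNONO. Set 2 was lower and Sets 1 and 3 higher after knockdown, and the groups overlapped. The log2 fold change was 0.16 ± 0.0972 (SE, 95% interval -0.05 to 0.37; adjusted p = 0.211). It passed without siControl Set 2 (adjusted p = 0.0350) or siNONO Set 2 (0.0405), and its fold without siNONO Set 3 was 0.01.

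TNFAIP3, a ubiquitin-editing enzyme that shuts off signalling upstream of the IκB kinases (6:138188351-138204451, plus strand), fell. It stood at 5.89, 6.46 and 6.52 CPM in siControl and at 5.17, 4.35 and 4.40 CPM in siNONO. The siNONO libraries all lay below the siControl libraries, with Set 1 the closest pair. The fitted level fell by 26%, with a log2 fold change of -0.43 ± 0.124 (SE, 95% interval -0.70 to -0.16, adjusted p = 0.0119). The fold was -0.19, -0.57 and -0.57 in Sets 1 to 3, and the adjusted p was 0.0878 without siControl Set 2, 0.0617 without siControl Set 3 and 0.0683 without siNONO Set 2.

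Of the target genes, BIRC3 showed the largest change of the 10 genes. It encodes a ubiquitin ligase of the inhibitor-of-apoptosis family that acts at TNF receptors (11:102188215-102210134, plus strand). Its level was 14.1, 15.4 and 12.4 CPM in siControl and 22.2, 23.0 and 21.4 CPM in siNONO. The groups were wide apart and the 3 siNONO libraries lay close together. The fitted level rose 1.59-fold, with a log2 fold change of 0.67 ± 0.0650 (SE, 95% interval 0.53 to 0.81, adjusted p = 3.30e-06). The Sets gave 0.66, 0.58 and 0.79. BIRC3 was called in all 16 alternative settings tried, with a log2 fold change between 0.39 and 0.73.

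BIRC2, the neighbouring paralogue with a like function, did not pass the test (log2 fold change -0.08, adjusted p = 0.0844). The BIRC3 to BIRC2 count ratio within a library was 0.178, 0.202 and 0.189 in siControl and 0.301, 0.323 and 0.338 in siNONO. The BIRC3 to TNFAIP3 count ratio was 2.39, 2.38 and 1.90 in siControl libraries and 4.30, 5.28 and 4.87 in siNONO libraries. Thus 2 genes known as targets of the same factors moved in opposite directions in every Set by counts. Both had κB matches in the promoter window. They showed the largest rise and the largest fall among the genes chosen by name, so their opposite directions are no separate result. The BIRC3 to TNFAIP3 ratio was higher in siNONO by 1.12 (log2) by counts and by 0.65 by TPM. With DESeq2, TNFAIP3 did not pass (adjusted p = 0.119). By TPM, TNFAIP3 was higher in siNONO in Set 1 (2.64 against 2.29 TPM), as BIRC3 was, and lower in Sets 2 and 3.

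ICAM1, the endothelial and epithelial adhesion molecule bound by leukocyte integrins (19:10381769-10397291, plus strand), stood at 7.28, 6.28 and 6.52 CPM in siControl and at 7.48, 7.95 and 8.58 CPM in siNONO. All siNONO libraries lay above the siControl libraries, Set 1 only barely. The log2 fold change of 0.25 ± 0.104 (SE, 95% interval 0.02 to 0.48) did not pass (adjusted p = 0.0663). It passed without siControl Set 1 (adjusted p = 0.0317) or siNONO Set 1 (0.0343), Set 1 having the lowest fold at 0.04. ICAM1 also passed without the filter on low counts (adjusted p = 0.0397). CXCL8, the neutrophil chemokine interleukin-8 (4:74606236-74609433, plus strand), had 4.43, 4.24 and 4.65 CPM in siControl and 4.54, 4.35 and 4.79 CPM in siNONO. Its libraries overlapped and each Set differed by 0.04 on the log2 scale. The fitted log2 fold change was 0.04 ± 0.128 (SE, 95% interval -0.24 to 0.32; adjusted p = 0.828), so at this depth a change of about the size seen for RELB could not be told from none.

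**Figure D2:**
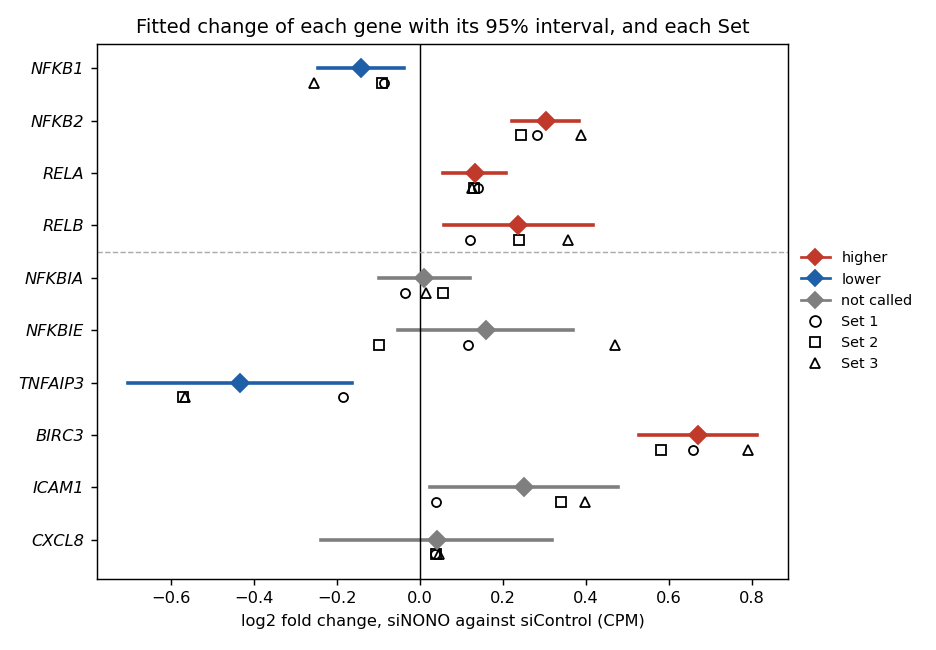
Log2 fold change (siNONO over siControl, horizontal axis) of each gene with its 95% interval, and the values of Sets 1 to 3 as separate points. BIRC3 (0.67) and TNFAIP3 (-0.43) lie farthest from 0 on opposite sides, and the 4 subunits lie between -0.14 and 0.30.

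Set side by side, all 4 subunits passed the test (3 higher, 1 lower) and 2 of the 6 inhibitor and target genes did (1 higher, 1 lower). In all, 6 of the 10 genes were called against 46.6% of tested genes, with 4 higher against 23.2% and 2 lower against 23.4%. Over only 10 genes, these counts are given beside the background as a description and are no result about the pathway. The groups did not overlap in CPM for 5 of the 10 genes, against 47.8% of tested genes. The median log2 fold change was 0.18 over the subunits (0.13, 0.18 and 0.24 in Sets 1 to 3) and 0.10 over the inhibitors and targets (0.04, 0.05 and 0.22), beside -0.0048 over all tested genes. The difference of medians, inhibitors and targets less subunits, was -0.09 (-0.09, -0.14 and -0.02 by Set, SD 0.0590). Taken apart, the 3 inhibitors had a median of 0.01 (-0.04, -0.10 and 0.01 in Sets 1 to 3), below that of the subunits each time. The 3 targets had one of 0.25 (0.04, 0.34 and 0.40), below that of the subunits in Set 1 and above it in Sets 2 and 3. The fitted medians are the values of NFKBIA and ICAM1, neither of which was called.

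The sizes of the changes were also placed among all tested genes. The BIRC3 change was larger than that of 90.5% of tested genes, the TNFAIP3 change larger than that of 78.1% and the NFKB2 change larger than that of 64.1%. The changes of ICAM1 (56.3%) and RELB (53.8%) lay near the middle of all genes, and those of RELA (32.9%) and NFKBIA (2.71%) among the smaller ones.

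Several of these results differed between counts and TPM, the latter being divided by a transcript length that was estimated in each library. The length given to NFKB2 was 2742, 2756 and 2404 bases in siControl and 2795, 2844 and 2827 bases in siNONO, longer in every siNONO library. That of TNFAIP3 was 3863, 2886 and 3029 bases in siControl and 2838, 2383 and 2641 bases in siNONO, shorter in every siNONO library. These were the 2 of 10 genes whose lengths did not overlap between groups, against 11.3% of tested genes. Leaving out a library can only keep or raise that number. It was then 2 to 4 (4 without siControl Set 2 or without siNONO Set 1), which is no check of it. The share over all tested genes was not taken for those runs.

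On the TPM scale NFKB2 overlapped, at 53.6, 52.9 and 64.7 TPM in siControl and 60.2, 56.8 and 66.6 TPM in siNONO. TNFAIP3 overlapped too, at 2.29, 3.33 and 3.27 TPM against 2.64, 2.59 and 2.40 TPM. NFKB1 (22.0, 18.7 and 21.8 against 17.6, 17.6 and 16.6 TPM) and NFKBIA (36.7, 34.6 and 36.6 against 33.7, 33.6 and 32.1 TPM) lay lower in every siNONO library. BIRC3 (5.5, 6.02 and 5.15 against 7.30, 7.23 and 8.23 TPM) remained higher.

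Tested with limma on log2(TPM + 1), BIRC3 was the only gene of the 10 to be called (log2 fold change 0.39, adjusted p = 0.0407), and the RELA fold turned to -0.02, NFKBIE to -0.07, NFKBIA to -0.12 and CXCL8 to -0.02. The median of all genes moved to -0.07 on that scale, and of 5257 genes called 1643 were higher and 3614 lower, against 3939 higher and 3985 lower by counts. Relative to that median, RELA lay above and NFKBIA below. The part of the length estimates in these differences was not tested.

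**Figure D3:**
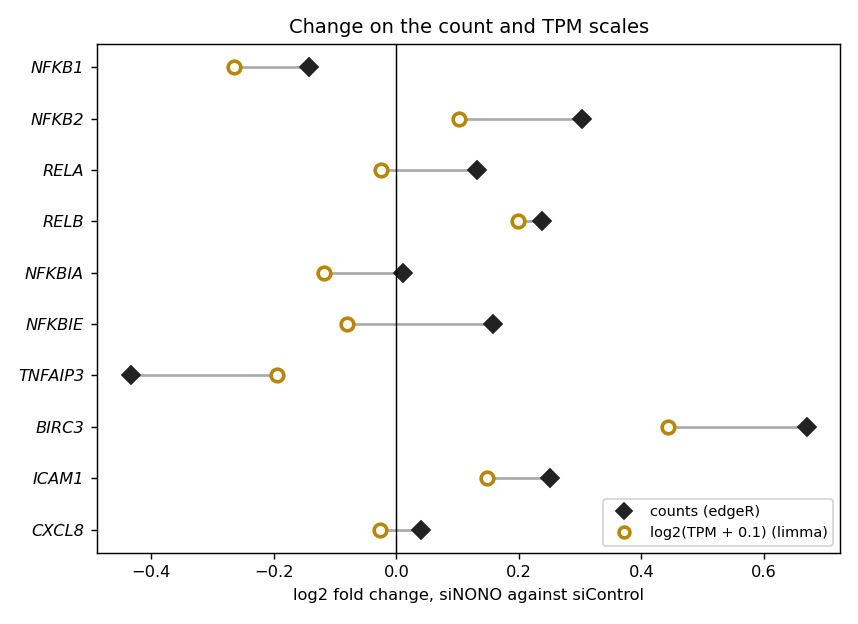
Log2 fold change (horizontal axis) by counts (edgeR, diamonds) beside the one on the log2(TPM + 0.1) scale (limma, circles), for each of the 10 genes. Each gene but TNFAIP3 lies lower on the TPM scale, with NFKB2 at 0.30 by counts and 0.10 by TPM and BIRC3 at 0.67 and 0.44, while TNFAIP3 lies at -0.43 and -0.19.

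The other genes of the pathway were taken from lists by role, of which 71 of 95 genes could be tested. Of these, 31 were higher in siNONO, 12 were lower and 28 did not pass, and the median log2 fold change was 0.14, beside 23.2% higher and 23.4% lower over all tested genes. More genes were called higher than lower by counts only. With limma on log2(TPM + 1) 9 were higher and 13 lower, and on log2(TPM + 0.1) 9 were higher and 12 lower. All tested genes leaned lower there too, with 1643 higher and 3614 lower on log2(TPM + 1). On log2(TPM + 0.1) the numbers over all tested genes were 1638 higher and 3612 lower. Among the remaining Rel and IκB genes, NFKBIZ (0.39, adjusted p = 0.0134), a nuclear IκB that helps induce secondary targets, and NFKBIB (0.22, adjusted p = 0.00273), which encodes IκBβ, rose. BCL3, a nuclear IκB that binds homodimers of the processed precursors, fell (-0.45, adjusted p = 1.97e-04). These 3 genes, like the others named without being fixed by the naming rule, were chosen after their values were seen.

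Of the 12 receptors that could be tested, 6 rose and 2 fell by counts (median 0.19), beside 23.2% higher and 23.4% lower over all tested genes. TLR3, the endosomal receptor for double-stranded RNA, had the largest fold of the receptors. It went from 4.10, 4.49 and 5.47 CPM in siControl to 15.2, 14.4 and 12.3 CPM in siNONO (log2 fold change 1.60, adjusted p = 3.85e-07). TLR6 fell by 0.58 on the log2 scale (adjusted p = 7.57e-04), with the reservation that it has a close paralogue in TLR1 with which reads may be shared. CD40, a receptor that can drive the non-canonical arm, rose by 0.31 (adjusted p = 0.00152), while TNFRSF1A, the main TNF receptor, stood at -0.01 (adjusted p = 0.926).

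Only 1 of the 10 ligand genes, TNFSF12 (TWEAK, log2 fold change 0.49), had enough counts to be tested. TNF itself had 0 counts over the 3 siControl libraries and 3 over the siNONO libraries, and IL1B had the same. mRNA of these classical inducers of the pathway was thus barely detectable at this depth in either group.

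By counts, 9 of the 16 adaptors and ubiquitin ligases were higher and 3 lower (median 0.19), beside 23.2% higher and 23.4% lower over all tested genes. MYD88, the adaptor of most Toll-like and interleukin-1 receptors, went from 30.4, 30.2 and 33.7 CPM to 63.0, 62.2 and 73.0 CPM (log2 fold change 1.07, adjusted p = 1.78e-09). RNF31, the catalytic subunit of the linear ubiquitin ligase, rose by 0.59 (adjusted p = 2.37e-07), and TRAF6 by 0.38 (adjusted p = 1.20e-04). IRAK1, a kinase recruited by MYD88, fell by 0.38 on the log2 scale (adjusted p = 5.82e-06), and TRAF2 also fell (-0.30, adjusted p = 9.06e-04). The MYD88 groups were wide apart.

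The IκB kinases, their upstream kinases and the TAB proteins showed no common direction, with 2 of 10 higher, 2 lower and a median of -0.03. Over all tested genes 23.2% were higher and 23.4% lower. IKBKB, the canonical catalytic subunit, rose slightly (0.17, adjusted p = 0.00773) by counts. That call was lost without the Set block (adjusted p = 0.0832) and with DESeq2 (adjusted p = 0.0923), and the fold was -0.0044 on the log2(TPM + 1) scale. CHUK (-0.05, adjusted p = 0.343) and IKBKG (-0.04, adjusted p = 0.684), the other catalytic subunit and the regulatory subunit, did not pass. TAB2, which tethers the upstream kinase TAK1 to ubiquitin chains, went from 146, 151 and 145 CPM to 105, 103 and 93.6 CPM (-0.55, adjusted p = 1.12e-07), with the groups wide apart. Of the other negative regulators, 2 of 8 were higher, among them the RNase ZC3H12A (0.45, adjusted p = 7.37e-04), and 3 were lower (median -0.05).

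Of the 19 further target genes tested, 9 were higher, 1 was lower and 9 did not pass by counts (median 0.24). The shares over all tested genes were 23.2% higher and 23.4% lower. The largest folds were in genes with few reads. The chemokine CCL5 was read 4, 4 and 3 times in siControl against 23, 25 and 33 times in siNONO (log2 fold change 2.77, adjusted p = 1.19e-04). LCN2, an iron-sequestering protein of mucosal defence, had 26, 33 and 17 counts against 83, 71 and 71 (1.54, adjusted p = 1.65e-04), and PTGS2, the inducible cyclooxygenase, 27, 14 and 22 against 61, 61 and 37 (1.29, adjusted p = 0.00421). PTGS2 did not pass on the log2(TPM + 1) scale (0.44, adjusted p = 0.0673). In all 3 genes the siNONO counts lay above the siControl counts in every library.

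CXCL10, a chemokine for T cells, was too low to be tested, with 0 counts in each siControl library and 9, 4 and 18 in siNONO, which is at least 9.97-fold higher when set against a floor of 3 counts over the siControl group. PTX3, also too low to be tested, went the other way, with 25 counts over the siControl libraries and 11 over the siNONO libraries. The anti-apoptotic CFLAR (0.33) and the transcription factor IRF1 (0.31) also passed, as higher. The 1 further target called lower was TNFAIP2 (-0.19, adjusted p = 8.18e-04).

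**Figure D4:**
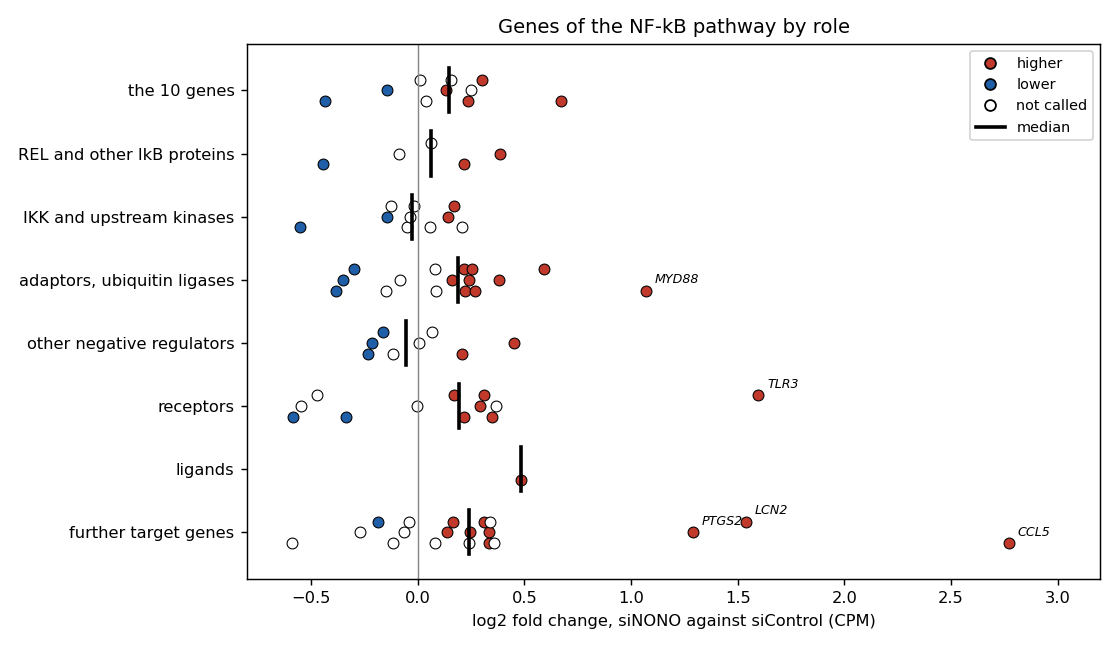
Log2 fold change (horizontal axis) of every tested gene of the pathway by role, coloured by whether it was called higher, called lower or not called. Receptors, adaptors and further targets reach past 1, with CCL5 at 2.77 and TLR3 at 1.60, while the kinases lie around a median of -0.03 with TAB2 lowest at -0.55.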

How the data were processed

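RNA-seq was run on HCT116 cells transfected with siControl or siNONO (3 libraries each, Sets 1 to 3). Reads had been trimmed (sickle) and aligned (STAR) to GRCh37 with GENCODE genes. From these alignments the authors made the expected counts, TPM, FPKM and abundance-weighted gene lengths with RSEM 1.3.1, and deposited them for 62492 genes in each library. The FPKM were not used. The strand setting of the counting is not given in the sources used here, so reads of antisense RNAs overlapping TNFAIP3, RELA, BIRC3 and ICAM1 cannot be told apart from those of the genes.

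Expected counts were rounded and tested with edgeR 4.0.16 (R 4.3.3): TMM scaling, filterByExpr, the quasi-likelihood F-test with a term for Set, and p-values adjusted by Benjamini-Hochberg across 17000 genes at 0.05. CPM and SD are from TMM-scaled counts. Intervals are 95%. Without adjustment, 8932 genes had p under 0.05. Alternatives were other scalings, no filter or a filter of 10 counts, no block, DESeq2 1.42.0, limma 3.58.1 on log2(TPM + 1) and log2(TPM + 0.1), and leaving out each library. With the Set block, a library left out leaves its partner without a pair. The runs without either library of a Set are therefore no separate checks. The tests were tested on simulated data.

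The libraries of a Set were taken as pairs because the study treated batch as a confounder and their deviations from the group means correlated. Across 11722 genes these correlations were 0.358, 0.21 and 0.425 in Sets 1 to 3. Unmatched libraries of Sets 1 and 2 correlated at 0.079 and 0.116, and unmatched pairs with Set 3 at -0.341 to -0.194. The series' design text calls the libraries biological replicates.

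Identifiers were matched to symbols by the table of gene names (62211 of 62492), and coordinates in GRCh37 are from GENCODE 44 mapped to that build. The members and lists were chosen with earlier results of these data known. Genes of the lists were named when called with a change of 0.5 or more (log2, either direction; at most 4 per list and direction), with REL, CHUK, IKBKB and IKBKG whatever their values. SOD2 and PECAM1 were not matched and are not analysed here.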

Additional observations from a re-analysis of the deposited data

How the results depend on the processing

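The number of genes called, 7924 with edgeR and the Set block, was 6164 without the replicate block, 5206 with DESeq2, 5257 with limma on log2(TPM + 1) and 5250 on log2(TPM + 0.1), and 6497 to 7653 when a library was left out. Of the 10 NF-κB genes, the 4 called higher became 5 without the filter, 2 without the block, 2 with DESeq2 and 1 on each TPM scale (3 to 4 leaving out a library). The 2 called lower became 1 without the filter, 1 without the block, 0 with DESeq2 and 0 on each TPM scale (0 to 2 leaving out a library). The 31 other pathway genes called higher became 24 without the block, 22 with DESeq2 and 9 on each TPM scale. Leaving out a library gave 25 to 30. The 12 called lower became 10 without the block, 8 with DESeq2 and 15 with library size alone. They became 13 and 12 on the TPM scales (9 to 11 leaving out a library). Over all tested genes, too, fewer were called higher than lower on log2(TPM + 1), at 1643 against 3614. DESeq2 gave NFKB1, RELA, RELB and TNFAIP3 adjusted p-values of 0.166, 0.0771, 0.261 and 0.119. Leaving out a library, targets minus subunits ranged from -0.13 to -0.06, while NONO ranged from -2.42 to -2.22 over all alternatives. Folds changed sign on log2(TPM + 1) and log2(TPM + 0.1) for RELA (-0.0246, -0.0250), NFKBIA (-0.115, -0.118), NFKBIE (-0.0731, -0.0811), CXCL8 (-0.0227, -0.0272), REL (-0.0098, -0.0132) and IKBKB (-0.0044, -0.0047), and, near 0, for NFKBIA with library size alone (-0.0056), and, leaving out a library, NFKBIA (-0.0098 to 0.0392), REL (-0.0188 to 0.177) and IKBKG (-0.0784 to 0.0031). The cause was not tested. Counts below about 10 in a library, as for CCL5, limit the precision of single folds.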
